A study of Mus musculus with 4 samples.

Results

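The genes for the PDGF and VEGF ligands and their receptors were followed in mouse embryonic fibroblasts (MEFs) with and without IP6K1, an enzyme that makes inositol pyrophosphates from inositol hexakisphosphate. The 10 genes were Pdgfa, Pdgfb, Pdgfc and Pdgfd, the receptors Pdgfra and Pdgfrb, the ligands Vegfa, Vegfb and Vegfc, and the VEGF receptor Flt1. They were found by gene name among the 27827 gene names of the array and held 24 of its 41174 probes. The set was chosen by gene family and partly on the array signal of Pdgfb, which had been listed as raised in the knockout lines, so the genotype difference of Pdgfb is given as a description without a test. The lower signal of Pdgfrb was likewise known from earlier results on these arrays, and its test adds no independent evidence.

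RNA from 2 MEF lines of the genotype Ip6k1+/+ and 2 of the genotype Ip6k1-/- was hybridised, with 1 single-colour array per line. The lines came from embryos of day 14 of a single litter, whose parents were both heterozygous for Ip6k1; sex and strain of the embryos were not given in the sources used here. All 4 lines carried the SV40 large T antigen for immortalisation and were thawed and passaged. They were collected by trypsinization while growing exponentially in medium with serum, with no ligand added as a treatment. The detached cells were put into PBS and RNAlater before RNA extraction, and any effect of this handling on the signals was not tested. Each genotype was thus represented by 2 immortalised lines, 1 per embryo, and the p-values measure only the spread between these lines. The knockout was inherited from the parents and was not limited to a cell type. The 4 arrays lay on 1 slide.

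PDGFs are dimers of related chains that bind the receptor tyrosine kinases PDGFR-alpha and PDGFR-beta, and they are classical growth and migration signals for fibroblasts, pericytes and smooth muscle cells. The VEGFs belong to the same superfamily of cystine-knot growth factors and act mainly on endothelial cells, through FLT1, KDR and FLT4. Fibroblasts make both kinds of ligand, and their growth in serum is in large part a response to PDGF from platelets.

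The array probes are oligonucleotides of 60 bases that match 1 stretch of a transcript. Coordinates are those of the array files, on mouse build mm9, and cover the whole probe, while the first 30 bases of each are printed from 5′ to 3′ in the sense of the transcript, all in lower case because no base is singled out. The probes of Pdgfb, Vegfa and Flt1 are shown because the text compares several probes of each of these genes across the lines. Both Pdgfb probes lie on the minus strand of chromosome 15 and differ in base composition, with 53.3% G and C in the first and 18.3% in the second:
Pdgfb A_51_P175262, chr15:79827138-79827197: acatgaactcctctgggcaggtggccacaa
Pdgfb A_52_P618427, chr15:79826327-79826386: ggctttctttttattttttaaatgtaaagt

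The Vegfa probes lie on the minus strand of chromosome 17, and 3 of them, with 41.7% to 45.0% G and C, are listed from 5′ to 3′ along the gene:
Vegfa A_52_P229471, chr17:46169039-46169098: ttaaatcgtgccaacggtttgaggaggttg
Vegfa A_51_P482552, chr17:46155512-46155571: actggattcgccattttcttatatctgctg
Vegfa A_52_P638895, chr17:46154387-46154446: cagatcggtgacagtcactagcttgtcctg

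Of the 5 Flt1 probes, all on the minus strand of chromosome 5, the first 3 were designed on cDNA clones. The first pair stayed at background level on every array, whereas the remaining 3 were measured in all 4 lines:
Flt1 A_52_P650151, chr5:148457132-148457191: ttttttgagcatttaagaatttttaacttt
Flt1 A_52_P405145, chr5:148465976-148466035: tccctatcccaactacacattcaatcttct
Flt1 A_52_P307922, chr5:148449781-148449840: caccaagctttgatggcattcaaagatgtc
Flt1 A_52_P520859, chr5:148373864-148373923: cctgtattattccgattttaataatctaat
Flt1 A_51_P398723, chr5:148373791-148373850: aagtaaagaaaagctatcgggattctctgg

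All signals are given as log2 of the processed intensity relative to the 75th percentile of the same array, so a difference of 1 is 2-fold. Probes differ in how brightly they hybridise, and levels are therefore compared between lines and not between probes or genes. Pairs of values are those of the first and second Ip6k1+/+ line, set against those of the first and second Ip6k1-/- line. Of the 24 probes, 19 were well above background on all 4 arrays, 2 on some and 3 on none, and none was saturated. The 20 probes that were well above background in both lines of either genotype were tested, and they covered all 10 genes. The arrays were alike in brightness, with a 75th percentile of 610 to 747 intensity units and 52.2% to 55.8% of spots well above background. The targeted gene followed the labels. Ip6k1 was at 0.35 and 0.39 in the Ip6k1+/+ lines on probe A_51_P213766 against -6.88 and -6.80, not well above background, in the knockout lines (limma adjusted p = 0.0356). A_52_P413035 gave the same picture, with signals not well above background in either knockout line. A_51_P103718 was lower but still well above background in the knockout lines, at 2.46 and 2.61 against -1.98 and -1.23 (limma adjusted p = 0.368).

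Among the 20 member probes that were tested, the line-to-line spread within a genotype was mostly larger than the difference between genotypes. For 19 of 20 probes, the 2 lines of at least 1 genotype lay farther apart than the genotype means, and the share over all tested probes was 80.9%. Pdgfrb was the exception. Besides Pdgfb, 18 probes were tested with limma. Of these, 0 passed an adjusted p of 0.05 and 1, that of Pdgfrb, had an unadjusted p under 0.05. Over all 21573 probes tested, 0.0139% passed the adjusted threshold and 3.34% had an unadjusted p under 0.05. Those past the adjusted threshold were 3 probes, among them Ip6k1 A_51_P213766 and A_52_P413035. Under a 2-fold rule (a mean difference of 1 or more, in which no knockout line lies less than 0.9 beyond the Ip6k1+/+ mean), 1 probe was higher, that of Pdgfb, and 1 was lower, that of Pdgfrb. The rule held for 1.06% of all probes in the higher and for 1.87% in the lower direction, 2.93% in all. The difference of Pdgfb was a reason for choosing the set and that of Pdgfrb was known beforehand. The member counts are therefore no independent result. Of the means, 8 were higher and 12 lower in the knockout lines, with a median difference of -0.11 beside 0.05 over all probes.

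**Figure D1:**
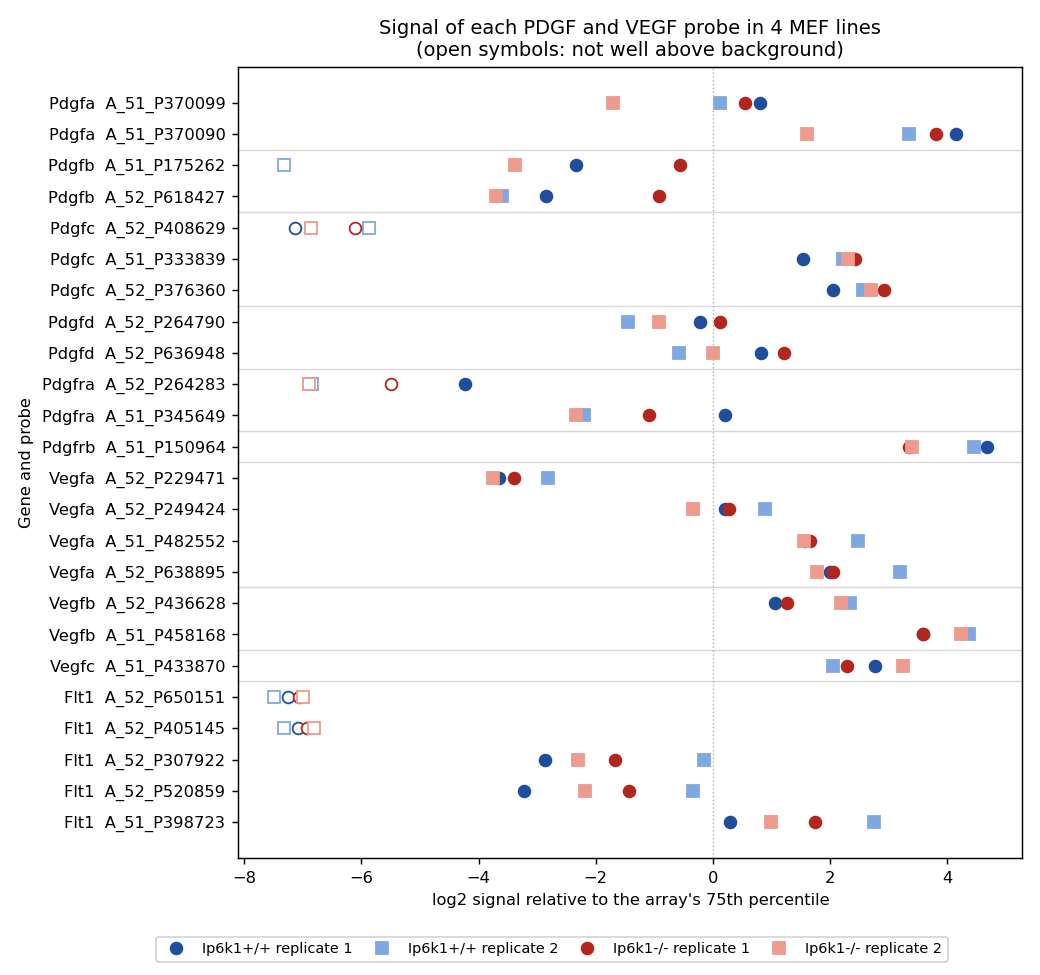
The plot gives the log2 signal of each of the 24 PDGF and VEGF probes (vertical axis) relative to the array's 75th percentile (horizontal axis) in the 4 MEF lines, with open symbols where a probe was not well above background. The red symbols of Pdgfrb lie apart from the blue ones, at 3.34 and 3.39 against 4.45 and 4.67, whereas in Flt1 the widest gap is between the 2 Ip6k1+/+ lines.

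Pdgfa encodes the A chain, which as a dimer signals through PDGFR-alpha. On its brighter probe A_51_P370090 (chr5:139453029-139453088) the signal was 4.15 and 3.35 in the Ip6k1+/+ lines against 3.81 and 1.60 in the Ip6k1-/- lines. Its other probe, A_51_P370099 (chr5:139455132-139455191), read 0.80 and 0.12 against 0.54 and -1.70. On both probes the second Ip6k1-/- line stood below the remaining lines, whereas the first lay between the Ip6k1+/+ lines. The 2 knockout lines differed by 4.64-fold and 4.74-fold on these probes, so that a mean difference of -1.04 on each (SE 0.79 and 0.80) did not exceed the spread between lines (limma adjusted p = 0.993). The signal of both probes was near the Ip6k1+/+ mean in the first knockout line, with differences from it of 0.06 and 0.08, and the values in the second were -2.15 and -2.16.

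Pdgfb encodes the B chain, a ligand of both PDGF receptors. Probe A_51_P175262 read -2.34 and -7.32 in the Ip6k1+/+ lines, the second value not well above background, against -0.56 and -3.39 in the knockout lines. Probe A_52_P618427, 3′ of it on the same transcript, was well above background on all 4 arrays and read -2.85 and -3.59 against -0.92 and -3.71. On both probes the first Ip6k1-/- line was the highest of the 4. The second Ip6k1-/- line was below the first Ip6k1+/+ line on both probes and the lowest of all 4 lines on A_52_P618427, so the genotypes overlapped on either probe.

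The mean difference was 2.86 on A_51_P175262, which passed the 2-fold rule, and 0.91 on A_52_P618427, which did not. The difference on A_51_P175262 rested on the value of the second Ip6k1+/+ line, in which the probe was at the background while A_52_P618427 was above it. Without that line it was 0.36, and without the first Ip6k1+/+ line 5.35. With dim values raised to a floor of -4.85, near the lowest signal still well above background, it was 1.62 and no longer passed the rule, because the second knockout line then lay too close to the Ip6k1+/+ mean. On A_52_P618427 the difference was -0.48 without the first Ip6k1-/- line and 2.30 without the second.

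Pdgfc and Pdgfd encode the C and D chains, which are released as latent dimers and need cleavage of their CUB domain to bind receptors. Pdgfc read 1.53 and 2.22 against 2.43 and 2.31 on A_51_P333839 (chr3:81017419-81017478), and 2.05 and 2.56 against 2.91 and 2.69 on A_52_P376360 (chr3:81017572-81017631). Both knockout lines were above both Ip6k1+/+ lines on each probe, a pattern that 18.8% of all probes shared, while 31.5% had no overlap of the genotypes in either direction. The differences were 0.49 (95% interval -0.28 to 1.27) and 0.50 (-0.18 to 1.17), with a limma adjusted p of 0.993. A further Pdgfc probe, designed on a cDNA clone, did not rise above background on any array.

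Pdgfd read -0.22 and -1.46 in the Ip6k1+/+ lines against 0.13 and -0.92 in the Ip6k1-/- lines on A_52_P264790 (chr9:6376926-6376985). On A_52_P636948 (chr9:6378717-6378776) it read 0.82 and -0.58 against 1.21 and -0.00018. In both genotypes 1 line was over 2-fold above the other, by 2.35-fold and 2.06-fold on the first probe. The genotype differences of 0.44 (SE 0.58) and 0.49 (SE 0.64) were smaller than that spread, with a limma adjusted p of 0.993.

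**Figure D2:**
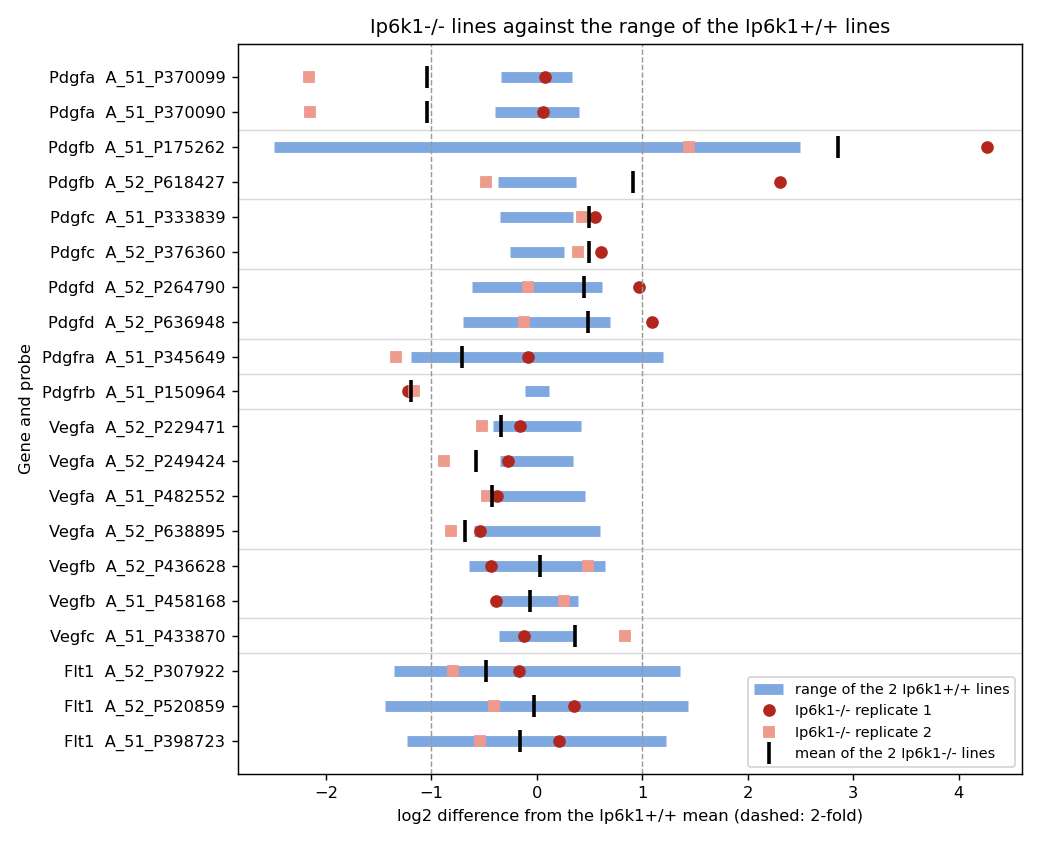
For each of the 20 tested probes (vertical axis), red symbols give the log2 difference of each Ip6k1-/- line from the Ip6k1+/+ mean (horizontal axis), the black tick their mean, and the blue bar the range of the 2 Ip6k1+/+ lines. Both Pdgfrb symbols lie at -1.22 and -1.17, well outside a narrow bar, while the Pdgfa pair is split between 0.06 and -2.15.

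Pdgfrb encodes PDGFR-beta, the receptor for the B and D chains on fibroblasts and on the mural cells of vessels. Its single probe A_51_P150964 (chr18:61244595-61244654) read 4.67 and 4.45 in the Ip6k1+/+ lines against 3.34 and 3.39 in the Ip6k1-/- lines. Both knockout lines were below both Ip6k1+/+ lines, which was the case for 12.6% of all probes. The level was 4.56 ± 0.16 (SD, n = 2) in Ip6k1+/+ and 3.37 ± 0.04 (SD, n = 2) in Ip6k1-/- MEFs. The difference was -1.20 (SE 0.19, 95% interval -1.68 to -0.71), a 2.29-fold lower signal, with an unadjusted p of 0.0016 in limma and an adjusted p of 0.798 over all probes. In bulk RNA a lower signal cannot separate fewer cells that express a gene from less RNA per cell.

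Leaving out any 1 of the 4 lines moved the Pdgfrb difference no further than -1.08 and -1.31, and it passed the 2-fold rule each time. No second probe of Pdgfrb was on the array to compare with. The 3 genes whose 4 line values, each centred on its own mean, lay nearest to those of Pdgfrb among 19957 probes were Lrrc56, Synpo and Capn5, at a root mean square distance of 0.049, 0.069 and 0.072. Synpo, which encodes the actin-binding protein synaptopodin, read 1.88 and 1.71 against 0.68 and 0.77 on that probe. For Pdgfb A_52_P618427 the nearest 3 were Olfr223, Syk and Slc41a1, at 0.10, 0.17 and 0.18. Each was highest in the first Ip6k1-/- line, and Syk, a cytoplasmic tyrosine kinase of blood cells, read -1.72, -2.27, 0.33 and -2.83 in the order of the lines above. With 4 values per probe, such likeness describes these lines alone.

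Pdgfra encodes PDGFR-alpha, which binds the A, B and C chains. Its 3′ probe A_51_P345649 (chr5:75593888-75593947) was printed in 10 copies per array and read 0.20 and -2.19 in the Ip6k1+/+ lines against -1.08 and -2.33 in the Ip6k1-/- lines. The first line of each genotype was above the second. The SD between the copies on an array was between 0.05 and 0.13, against a distance of 2.39 between the 2 Ip6k1+/+ lines and of 1.24 between the 2 Ip6k1-/- lines. The genotype difference was -0.71 (SE 0.92, 95% interval -3.10 to 1.69, limma adjusted p = 0.993). A second Pdgfra probe, A_52_P264283 near the 5′ end of the transcript, was well above background only in the first Ip6k1+/+ line, at -4.24, and was not tested. That line also had the highest value on the 3′ probe.

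**Figure D3:**
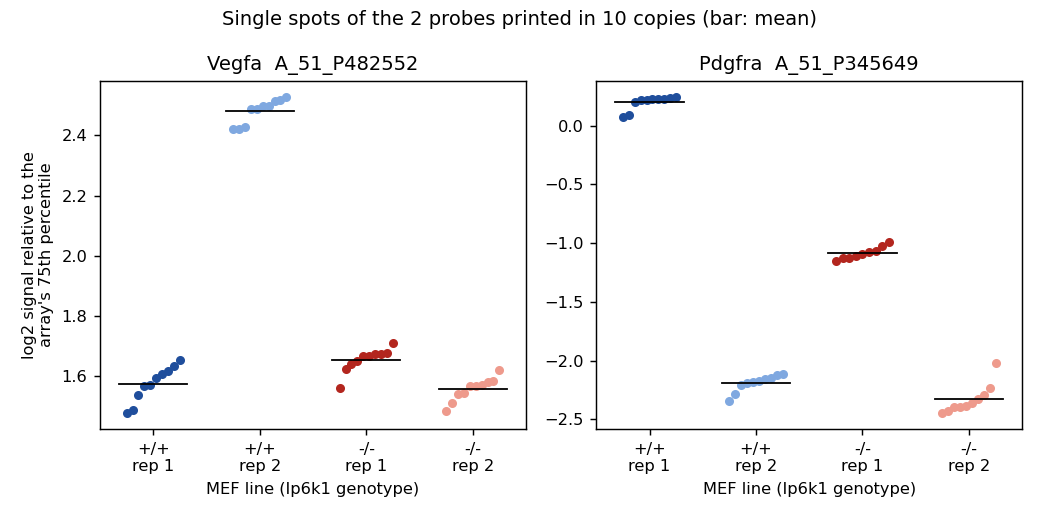
Each point is the log2 signal of 1 spot (vertical axis, relative to the array's 75th percentile) of the Vegfa and Pdgfra probes that were printed in 10 copies, in the 4 MEF lines (horizontal axis), with a bar at their mean. Copies on an array agree within an SD of 0.04 to 0.13, and 1 of the Pdgfra spots of the first Ip6k1-/- line, with an outlier flag, was left out.

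Vegfa encodes the main VEGF, a hypoxia-regulated signal for vessel growth. The 4 probes differed in brightness and shared a pattern: the second Ip6k1+/+ line was the highest and the second Ip6k1-/- line the lowest on each. On the probe with 10 copies, A_51_P482552, the values were 1.57 and 2.48 in the Ip6k1+/+ lines against 1.65 and 1.56 in the Ip6k1-/- lines, with an SD between copies of 0.04 to 0.06. The second Ip6k1+/+ line thus stood above the rest, which lay close together. The most 3′ probe, A_52_P638895, read 2.00 and 3.19 against 2.06 and 1.78.

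A_52_P249424 read 0.20 and 0.89 against 0.27 and -0.34. The dimmest Vegfa probe, A_52_P229471 near the 5′ end, read -3.66 and -2.82 against -3.39 and -3.75. In all 4 probes the first Ip6k1+/+ and the first Ip6k1-/- line lay close together. The genotype differences ran from -0.68 to -0.34 with SEs of 0.35 to 0.44, less than the 0.69 to 1.20 that separated the 2 Ip6k1+/+ lines, and the limma adjusted p was 0.993 for each. The 95% interval on A_51_P482552 was -1.35 to 0.50.

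Vegfb encodes a VEGF that binds FLT1 and not KDR. It read 3.59 and 4.37 in the Ip6k1+/+ lines against 3.59 and 4.24 in the Ip6k1-/- lines on A_51_P458168 (chr19:7056962-7057019). On A_52_P436628 (chr19:7057245-7057304) it read 1.05 and 2.34 against 1.27 and 2.18. The 2 lines of a genotype differed by 1.56-fold to 2.45-fold, and the genotype means by -0.07 (95% interval -1.04 to 0.90) and 0.03 (-1.41 to 1.47), with limma adjusted p of 0.993 and 0.998. The sign of the second difference turned with quantile normalization. The first interval reaches a 2-fold lower signal, and the second exceeds 2-fold either way.

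Vegfc encodes a ligand of FLT4 and a growth signal of lymphatic vessels. Its probe A_51_P433870 (chr8:55271533-55271592) read 2.77 and 2.06 against 2.29 and 3.25. The second Ip6k1-/- line was the highest and the second Ip6k1+/+ line the lowest. The difference of 0.36 (SE 0.43, limma adjusted p = 0.993) was smaller than the distance of 0.96 between the 2 Ip6k1-/- lines.

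**Figure D4:**
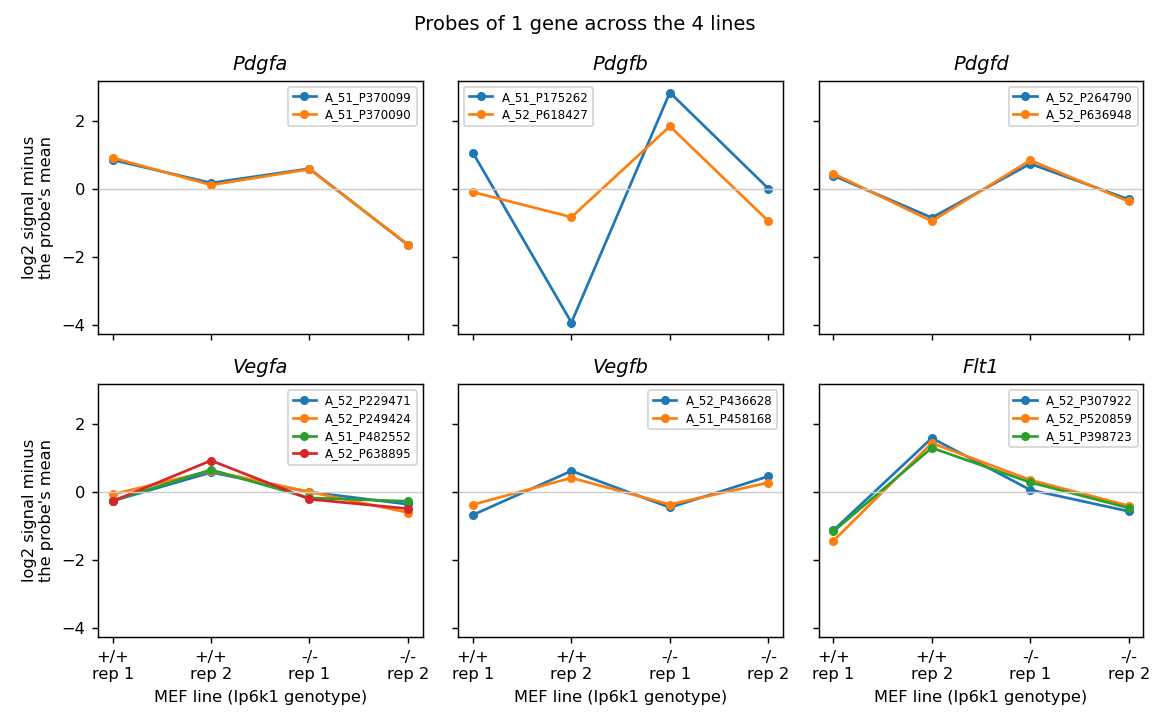
Each line joins the log2 signals of 1 probe in the 4 MEF lines (horizontal axis) after its mean over the lines was subtracted (vertical axis), for 6 genes with several tested probes. The probes of Pdgfa, Pdgfd, Vegfa, Vegfb and Flt1 run close together, while those of Pdgfb part in the second Ip6k1+/+ line, where A_51_P175262 was at -7.32, not well above background.

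FLT1 (VEGFR-1) binds VEGF-A and VEGF-B with high affinity, and a soluble form of it traps these ligands. Flt1 had the widest distance between the 2 Ip6k1+/+ lines among the members that were well above background on all 4 arrays. On A_51_P398723, its brightest probe, it read 0.29 and 2.75 in the Ip6k1+/+ lines against 1.73 and 0.98 in the Ip6k1-/- lines. On A_52_P520859, which lies beside it, it read -3.22 and -0.34 against -1.43 and -2.18. On A_52_P307922, which lies farther upstream in the gene, it read -2.86 and -0.15 against -1.67 and -2.30.

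All 3 probes placed the second Ip6k1+/+ line highest, the first Ip6k1+/+ line lowest and both knockout lines between them. The Ip6k1+/+ lines differed by 5.49-fold, 7.34-fold and 6.56-fold, and the Ip6k1-/- lines by 1.68-fold, 1.69-fold and 1.55-fold. The genotype means differed by -0.16, -0.03 and -0.48, with SEs of 0.86, 1.01 and 0.95 and limma adjusted p of 0.993, 1.000 and 0.993. The sign on A_52_P520859 turned with median normalization. The line with the highest Flt1 was also the line with the highest Vegfa and Vegfb. The lowest line of Flt1 was also the lowest of Vegfb on A_52_P436628, but not of Vegfa. On Vegfb A_51_P458168 it was practically level with the first Ip6k1-/- line, both at 3.59.

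The lists named from here on give 1 probe per gene, the one with the brightest mean, and were chosen with earlier results of these data known. Over all 14335 genes tested, 1.07% were higher and 2.09% lower under the 2-fold rule, 31.3% did not overlap between genotypes, 0.00698% passed limma, 528 genes had an unadjusted p under 0.05, and the median difference was 0.04. Of the other VEGF family genes, all 6 on the array were tested, 0 of 6 passed limma (2 with an unadjusted p under 0.05), 0 of 6 were higher and 1 of 6 was lower under the 2-fold rule, with a median difference of 0.40. The lower gene was Figf, which encodes VEGF-D, a ligand of FLT4 in the mouse. It read 2.54 and 1.86 in the Ip6k1+/+ lines against 1.27 and 1.07 in the Ip6k1-/- lines, with a difference of -1.02 (SE 0.30, limma adjusted p = 0.993). It no longer passed the rule without the first Ip6k1+/+ line, at -0.68, or without the second Ip6k1-/- line, at -0.92.

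Kdr, which encodes VEGFR-2, the main signalling receptor of VEGF-A, read -3.66 and -3.99 against -2.94 and -1.59. Both knockout lines were above both Ip6k1+/+ lines, by 1.56 in the mean (SE 0.55, limma adjusted p = 0.993), and the first missed the 2-fold rule's limit for a single line. Flt4, the receptor of VEGF-C and VEGF-D, was at -3.75 and -3.19 against -4.40 and -2.98, and was well above background on 3 arrays. Pgf, which encodes the FLT1 ligand placental growth factor, read -3.31 and -1.72 against -1.62 and -2.40. The co-receptor Nrp2 split by line in either genotype, at 4.24 and 2.35 against 5.14 and 2.67. Nrp1 read -1.36 and -0.65 against -1.55 and 0.11.

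Of 9 proteases and cofactors that process PDGF or VEGF ligands, 7 were tested, 0 passed limma (2 with an unadjusted p under 0.05), and 1 was higher and 0 lower under the 2-fold rule, with a median difference of -0.06. Ccbe1, a secreted cofactor for the maturation of VEGF-C, read -2.31 and -0.81 against 1.13 and -0.10, a difference of 2.08 (SE 0.68, limma adjusted p = 0.993). Without the first Ip6k1+/+ line the difference was 1.32 and did not pass the rule. The proprotein convertase Pcsk6 was not called and had the widest range of the list, at 4.87 and -1.39 in the Ip6k1+/+ lines against 3.49 and -0.81 in the Ip6k1-/- lines.

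Of 10 matrix and scavenger proteins that bind PDGF or VEGF, 9 were tested, 0 passed limma (1 with an unadjusted p under 0.05), 0 were higher and 1 was lower under the rule, with a median difference of -0.32. The lower gene was Dcn, which encodes the collagen-binding proteoglycan decorin. Dcn read 0.99 and 1.89 in the Ip6k1+/+ lines against -2.09 and 0.18 in the Ip6k1-/- lines, with a difference of -2.40 (SE 0.82, limma adjusted p = 0.993). Without the second Ip6k1+/+ line it was -1.95 and failed the limit for single lines.

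Of 37 adaptors and enzymes recruited by PDGF and VEGF receptors, 36 were tested, 0 passed limma and 0 passed the 2-fold rule in either direction, with a median difference of 0.08. Of the 36, 1 had an unadjusted p under 0.05. The largest differences in size were those of Cbl, a ubiquitin ligase that ends receptor signalling, at 0.99 (SE 0.69), and of the transcription factor Stat3, at -0.92 (SE 0.61). Cbl read -4.63 and -2.73 against -2.60 and -2.79. Its difference lay with the first Ip6k1+/+ line, near the lowest signal well above background on that array (-4.94). Stat3 read 4.92 and 3.38 against 3.72 and 2.75. The genotypes overlapped for both genes.

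Of 28 early response genes that PDGF is known to induce in fibroblasts, 27 were tested, 0 passed limma (4 with an unadjusted p under 0.05), 0 were higher and 3 were lower under the 2-fold rule, with a median difference of -0.27. Both knockout lines were below both Ip6k1+/+ lines for 9 of 27 and above them for 2 of 27, beside 13.2% and 18.1% of all genes. The count of 3 lower genes changed with the lines used. It was 1 without the first Ip6k1+/+ line, 6 without the second, 7 without the first Ip6k1-/- line and 4 without the second. The lower count over all probes was 404, and in the same order it was 448, 843, 1338 and 986. Egr2, a zinc finger transcription factor, read 2.42 and 1.85 in the Ip6k1+/+ lines against -0.49 and 0.47 in the Ip6k1-/- lines. Its difference of -2.15 (SE 0.42, limma adjusted p = 0.993) passed the rule with any 1 line left out, at -2.63 to -1.67.

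Egr3, of the same family, read -1.19 and -2.13 against -2.79 and -5.22, the last not well above background, so that its difference of -2.34 (SE 0.90, limma adjusted p = 0.993) depends on a value at the background. With detection required on all 4 arrays, Egr3 dropped out and 2 early response genes were lower. Ccl7, a monocyte chemokine, read 4.37 and 3.25 against 2.01 and 2.51, a difference of -1.55 (SE 0.44, limma adjusted p = 0.993). Without the first Ip6k1+/+ line the Egr3 and Ccl7 differences were -1.87 and -0.99 and did not pass the rule. Without the second Ip6k1-/- line Egr3 was at -1.13.

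All 21 genes of the HIF pathway and the hypoxia response, which includes the known regulators of Vegfa, were tested. Of them, 0 passed limma (1 with an unadjusted p under 0.05) and 0 passed the 2-fold rule, with a median difference of -0.09. Both knockout lines were below both Ip6k1+/+ lines for 6 of 21 and above them for 2 of 21, beside 13.2% and 18.1% of all genes. Adm, which encodes adrenomedullin, read 2.61 and -0.45 against -1.59 and 0.67, a difference of -1.54 (SE 1.26). P4ha1, a subunit of collagen prolyl hydroxylase, read 3.24 and 2.98 against 2.60 and 2.53, a difference of -0.55 (SE 0.20, limma adjusted p = 0.993).

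**Figure D5:**
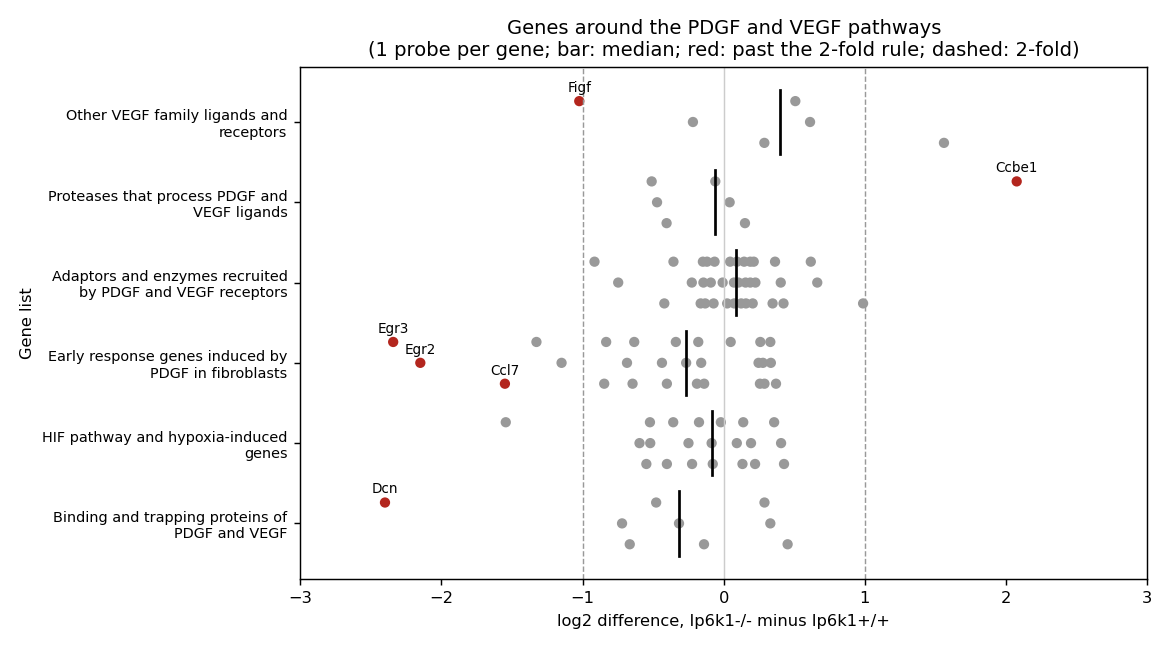
Each point is the log2 difference of 1 gene between Ip6k1-/- and Ip6k1+/+ MEFs (horizontal axis) in 6 lists around the PDGF and VEGF pathways (vertical axis), with a bar at the list's median. Red points passed the 2-fold rule, and among them Egr2, Egr3, Ccl7, Figf and Dcn lie to the left and Ccbe1 to the right.

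The lines expressed fibroblast genes: 11 of 13 fibroblast markers were well above background on all 4 arrays, and Col1a1, Col1a2 and S100a4 were saturated on all of them. Saturated probes can hide a difference. Of the 12 fibroblast markers tested, 0 passed limma (4 with an unadjusted p under 0.05), 0 were higher and 1, Dcn, was lower under the 2-fold rule, with a median difference of -0.40. Both knockout lines were below both Ip6k1+/+ lines for 6 of these 12 and above them for 0, beside 13.2% and 18.1% of all genes. The list was named after its values were seen, so this count is a description only. Of the 12 means, 7 were lower and 5 higher in the knockout lines. Among the higher ones were the saturated probes of Col1a1, Col1a2, S100a4 and Vim (the last on 3 arrays), with differences of only 0.05 to 0.08. These probes cannot show whether the genes differed. Col3a1 read 6.24 and 5.90 against 5.46 and 4.17, and Postn 4.78 and 6.04 against 2.91 and 4.74. Thy1 had the higher mean in the knockout lines, at 1.41 and 6.02 against 3.98 and 5.52, and its genotypes overlapped. The VEGF receptors are best known from endothelial cells, and 8 of 12 endothelial markers, among them Pecam1, Cdh5, Tek and Tie1, were not well above background in any line. Kdr and Egfl7 were measured in all 4 lines, Erg in the first line of each genotype, at 1.31 and 1.48, and Vwf in the first Ip6k1-/- line, at -4.12. The summed signal of the endothelial list, as a multiple of the 75th percentile, was 4.34 and 3.02 in the Ip6k1+/+ lines against 5.71 and 2.83 in the Ip6k1-/- lines, with Erg adding to it almost only in the first line of each genotype. Egfl7 read 0.73 and 1.51 against 1.40 and 1.24, the same order of the 4 lines as Flt1.

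Pdgfrb is a marker of pericytes and smooth muscle as well as of fibroblasts. Of 11 markers of these cells, 6 were well above background on all 4 arrays, with Acta2 and Tagln saturated, and the pericyte genes Rgs5 and Kcnj8 were above it in none. Cspg4 read 3.94 and 1.53 against 4.18 and 1.69, Mcam 1.72 and 3.39 against 2.53 and 3.65, Notch3 -1.98 and -1.08 against -1.12 and -2.74, and Cnn1 6.53 and 4.10 against 5.51 and 4.97. The genotypes overlapped on each of these 4 unsaturated probes. The summed signal of the list, 343 and 218 against 300.1 and 253, was carried largely by the saturated probes. Abcc9 and Myh11 were each above background in 1 line. Of 8 macrophage markers on the array, Cd68 and Cd14 were above background in every line and 5, Ptprc and Csf1r among them, in none. Of 6 epithelial markers on the array, Krt18 was measured in all 4 lines, at -0.66 and 1.56 against -1.35 and 0.55. Krt5 was above background on 2 arrays and Epcam and Krt8 on 1 each, while Cdh1 and Krt14 were above it in none. The part of other cell types in the differences above was not tested.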

How the data were processed

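Total RNA of 2 Ip6k1+/+ and 2 Ip6k1-/- MEF lines was labelled with Cy3 and hybridised to Agilent whole mouse genome arrays. The authors deposited spot intensity values as given by Feature Extraction 10.5.1.1, after its background subtraction and detrending, with 0 or 1 flags for detection, saturation and outliers, and also deposited log2 values, shifted by the 75th percentile of each array in GeneSpring GX. The deposited log2 values differed from those used here by a constant per array (median deviation around it at most 0.0025).

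Here log2 of the processed intensity minus the 75th percentile of the 43379 non-control spots was used. Outlier spots (96 to 133 per array) were left out, saturated spots kept, and spots of a probe averaged. Genotypes were compared with limma 3.58.1 (lmFit, eBayes with trend) in R 4.3.3 over 21573 probes, with Benjamini-Hochberg adjustment. The test was also run on simulated data with independent lines, and no result here rests on that run. The number of arrays limits the precision.

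The genes, lists and tests were chosen with earlier results of these data known. Named genes were all members, the other VEGF family, list genes past the 2-fold rule or limma and otherwise the largest 2 differences among genes well above background on all 4 arrays, detected markers of other cell types, and the 3 nearest genes to Pdgfb and Pdgfrb. Pcsk6, the fibroblast markers and the undetected markers were named after their values were seen. Alternatives were normexp (offset 50), quantile and median normalization, the deposited values, other filters and a floor, a fit with the replicate number as a block, the methods' t-test, eBayes without trend, and fits without each line in turn. The sequence of 1 Vegfa probe is not reported here.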

Additional observations from a re-analysis of the deposited data

How the results depend on the processing

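With 2 lines per genotype, even the difference of -4.13 on Ip6k1 A_51_P103718 did not pass limma (adjusted p = 0.368). In 198 refits of the 18 tested member probes under 11 other settings, 196 kept their direction and side of the threshold, and 2 reversed: Vegfb A_52_P436628 to -0.0013 with quantile normalization and Flt1 A_52_P520859 to 0.021 with median normalization. Other filters, the floor, eBayes without trend, the block and the t-test left these mean differences unchanged, so their direction could not turn. Keeping outlier spots moved only Pdgfra, to -0.714. As very few of all probes passed limma under any setting, the side of the threshold could hardly change either. The lowest adjusted p of a member was 0.257, for Pdgfrb with the replicate number as a block. The replicate numbers were not stated to pair the lines. Across the 21573 tested probes, the deviation of the first line from its genotype mean correlated at 0.48 between the genotypes. Under the block 0 member probes passed limma. The count of member probes past the 2-fold rule in the higher direction was 0 with normexp, with probes well above background on all 4 arrays only, and with a floor on dim values, and the count in the lower direction was 3 with the mean difference alone, which added both Pdgfa probes. The methods' t-test called 1 of 18 member probes, Pdgfrb, and 3.94% of all probes at their threshold, and 0 after Benjamini-Hochberg.

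Leaving out each line in turn reversed 13 of 18 member differences at least once. The differences ranged from -2.16 to 0.081 and -2.15 to 0.063 (Pdgfa), 0.36 to 5.35 and -0.48 to 2.30 (Pdgfb), 0.15 to 0.84 and 0.24 to 0.75 (Pdgfc), -0.17 to 1.06 and -0.21 to 1.18 (Pdgfd), -1.91 to 0.49 (Pdgfra), -1.31 to -1.08 (Pdgfrb), -0.76 to 0.082, -0.92 to -0.23, -0.88 to 0.031 and -1.28 to -0.08 (Vegfa), -0.62 to 0.67 and -0.46 to 0.32 (Vegfb), -0.12 to 0.84 (Vegfc), and -1.84 to 0.88, -1.46 to 1.41 and -1.39 to 1.07 (Flt1). Member probes past the 2-fold rule numbered 1 to 3 in the higher and 1 to 5 in the lower direction, the latter 5 without the first Ip6k1+/+ line, 4 without the first Ip6k1-/- line and 2 without the second Ip6k1+/+ line, and the former 3 without the second Ip6k1-/- line. Early response genes past the rule in the lower direction numbered 1 to 7, and those of every other pathway list at most 2 in either direction. Probes past limma were 0 among the members each time.

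Over all probes, 229 were higher and 404 lower under the 2-fold rule; these counts were 55 and 190 with normexp, 404 and 949 without a filter, 122 and 241 with detection on all 4 arrays, 149 and 372 with the floor, 397 and 887 with the mean alone, and 271 to 813 and 448 to 1338 with 1 line left out. Probes past limma, 3 in all, numbered 0 with normexp, quantile normalization, the floor, the methods' t-test and any line left out.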

Other observations

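The neighbours of Pdgfrb were looked at after Synpo had appeared among the genes nearest to it. Within 500 kb of the Pdgfrb probe on chromosome 18 of mm9, 19 other probes of 12 gene names were tested. Under the 2-fold rule 2 of them were lower, beside 1.87% of all probes, and 0 higher in the Ip6k1-/- lines, and their median difference was -0.05. The lower ones were Synpo A_51_P123676, with a difference of -1.07, which had been picked for its likeness to Pdgfrb and so had to be lower, and Arsi, which encodes an arylsulfatase and read 1.76 and -1.98 in the Ip6k1+/+ lines against -2.82 and -4.26 in the Ip6k1-/- lines. The other Synpo probe read 0.25 and -0.96 against -0.81 and -0.82, so that the genotypes were -0.46 apart in the mean with an SE of 0.46. Hmgxb3 and Slc6a7, the nearest tested genes on either side, differed by 0.10 and -0.05. No limma adjusted p among the 19 probes was under 0.993.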
